A study of Homo sapiens with 24 samples.

Results

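Translation elongation factors and a few other proteins of the translation machinery are encoded by TOP mRNAs, and 12 Ensembl transcripts of 8 such genes were looked up by their identifiers in ribosome profiling and RNA-seq tables of the human breast cancer cell line MDA-MB-231. Of the 12 transcripts, 7 were present in both tables, 1 each for EEF1A1 (ENST00000316292), EEF2 (ENST00000309311), EEF1G (ENST00000329251), EEF1B2 (ENST00000236957), PABPC1 (ENST00000318607), EIF3E (ENST00000220849) and NPM1 (ENST00000296930). Absent from both were 5 transcripts, namely ENST00000309268 and ENST00000331523 of EEF1A1, ENST00000392221 and ENST00000392222 of EEF1B2, and ENST00000262056, the transcript listed for EIF4B. The 7 transcripts are among 11252 in the first table and 10767 in the second, and all 7 were among the 9342 and 8283 transcripts with enough signal to be tested (a mean value of at least 10 in each assay). The tables carry no gene names, so that the symbols come from the list of identifiers used to choose the transcripts.

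Ribosome profiling reads out the stretches of mRNA covered by ribosomes (footprints), and RNA-seq of the same kind of lysate gives the RNA level. In the first table LM2 cells, derived from MDA-MB-231 and labelled highly metastatic to lung, stand against parental cells labelled as poorly metastatic. In the second, cells with a guide against HNRNPC (sgHNRNPC, labelled as a knockdown of this nuclear pre-mRNA binding protein) stand against cells with a control guide (sgCTRL), both labelled as poorly metastatic. Each group had 3 footprint and 3 RNA libraries, and cycloheximide was present in the lysis buffer of all of them. The level of HNRNPC itself and the markers of the line were not analysed here, so the knockdown rests on its label. In such bulk samples fewer cells of a kind and less RNA per cell cannot be told apart.

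TOP mRNAs begin with a C followed by a run of pyrimidines at the 5′ end, the terminal oligopyrimidine tract. The tract allows the cell to switch their translation on and off together: mTORC1 signalling promotes it, and the RNA-binding protein LARP1 and the 4E-BPs hold it back when mTORC1 is inactive. Most cytosolic ribosomal proteins and several elongation factors are encoded by such mRNAs, which makes them a readout of how much the cell invests in making its translation machinery.

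The annotated gene starts are shown because the tract defines this class. Starts from the RefSeq promoter table (GRCh38.p14) were searched for 6 of the 8 genes, namely EEF1A1, EEF2, EEF1G, EEF1B2, EIF4B and NPM1, with 8 start entries among them. The starts of PABPC1 and EIF3E were not analysed, so nothing is said here about a tract in these genes. In each line the first 10 bases lie before the annotated start and the other 20 begin with it, 5′ to 3′ on the strand of the gene, and capitals mark a C followed by at least 4 bases that are each C or T, searched on the gene's own strand from 3 bases before to 3 bases after the start, taking the match that begins nearest to the start.
EEF1A1, chr6:73521013-73521042, minus strand: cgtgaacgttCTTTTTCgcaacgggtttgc
EEF2, chr19:3985444-3985473, minus strand: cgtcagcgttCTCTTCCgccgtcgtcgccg
EEF1G, chr11:62573872-62573901, minus strand: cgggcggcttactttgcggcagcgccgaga
EEF1B2, first start, chr2:206159599-206159628, plus strand: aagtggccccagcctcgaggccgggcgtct
EEF1B2, second start, chr2:206159885-206159914, plus strand: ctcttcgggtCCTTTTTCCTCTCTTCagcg
NPM1, chr5:171387839-171387868, plus strand: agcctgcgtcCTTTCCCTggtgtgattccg

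Counted from the annotated start, a tract was found for EEF1A1 (7 bases), EEF2 (7 bases), the second start of EEF1B2 (16 bases), NPM1 (8 bases) and EIF4B (5 bases). The run of C and T continued before the start in these 5 entries, by 2 bases for EEF1A1, EEF2 and NPM1 and by 1 base for EEF1B2 and EIF4B, and for NPM1 a match by the same letters also began 1 base before the start. Neither the EEF1G start, the first EEF1B2 start nor another NPM1 start held one in the window. Of 35116 annotated starts in the table, 1429 (4.07%) had such a tract beginning at the start itself, and 13.0% had one beginning within 3 bases of it. The starts are annotations, not measured in these cells, and which start the listed EEF1B2 and NPM1 transcripts use was not given by the files.

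These transcripts had some of the highest values in the tables. Their RNA values came to 7347 to 405046 steps per library, where a step is the unit of which all RNA values of a library were whole multiples. A step may stand for 1 read, which was not settled because the lowest value of each library was 4 to 11 steps. EEF1A1, the GTPase that brings aminoacyl-tRNA to the ribosome, held rank 2 in every RNA and footprint library of the LM2 table and rank 1 in every RNA library of the knockdown table. EEF2, the GTPase that moves the ribosome along by a codon, ranked between 7 and 8 for footprints and between 15 and 22 for RNA in the LM2 table. EIF3E, a subunit of an initiation factor that joins the small ribosomal subunit to mRNA, ranked lowest in RNA, at 471 to 605 in the LM2 table. RNA values share 1 step across transcripts of any length, and whether footprints were divided by length is not known, so these ranks do not compare molecules between genes. EEF1A1 and NPM1 have processed pseudogenes of near-identical sequence, and the rule for shared reads is not given in the sources used here, so their values are uncertain.

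Footprints per RNA, the translation efficiency, were below the median of tested transcripts for 6 of the 7 transcripts. In parental cells the efficiency of EEF1A1, in footprint units per 1000 RNA units, was 12.5, 12.7 and 14.4 in replicates 1 to 3, against a median of 42.5 over the 9342 tested transcripts. PABPC1, the cytoplasmic poly(A)-binding protein, was lowest, with 9.47, 9.71 and 9.22. EIF3E stood above the median with 63.8, 58.1 and 71.4. EEF2, with a ratio of means of 30.9, lay between the lower and upper quartiles of tested transcripts (25.8 and 66.5). EEF1A1, EEF1G, EEF1B2, PABPC1 and NPM1 lay below the lower quartile. In percentiles of all tested transcripts, parental PABPC1 was at 3.02%, NPM1 at 6.47%, EEF1A1 at 6.57%, EEF1B2 at 12.6%, EEF1G at 16.4%, EEF2 at 33.2% and EIF3E at 73.3%. NPM1 and EEF1A1, neighbours in that order, did not differ beyond their spread (13.1 ± 1.02 and 13.2 ± 1.04, SD, n = 3), while PABPC1 lay below both in every replicate.

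In control guide cells, whose values were normalized separately, the lowest and the highest were the same. PABPC1 was again lowest at 1.56%, followed by EEF1A1 at 4.01%, EEF1G at 8.46%, EEF1B2 at 11.6%, NPM1 at 16.2%, EEF2 at 17.6% and EIF3E at 61.6%. The median percentile of the 7 was 12.6% in parental, 8.12% in LM2, 11.6% in control guide and 8.83% in HNRNPC knockdown cells. It depended on which transcripts were ranked, from 8.51% with a minimum mean of 50 to 15.6% among all transcripts of the table in parental cells. Whether footprints were counted over coding sequence and RNA over the whole transcript is not given in the sources used here, and the part of untranslated length and shared reads in these levels was not tested.

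**Figure D1:**
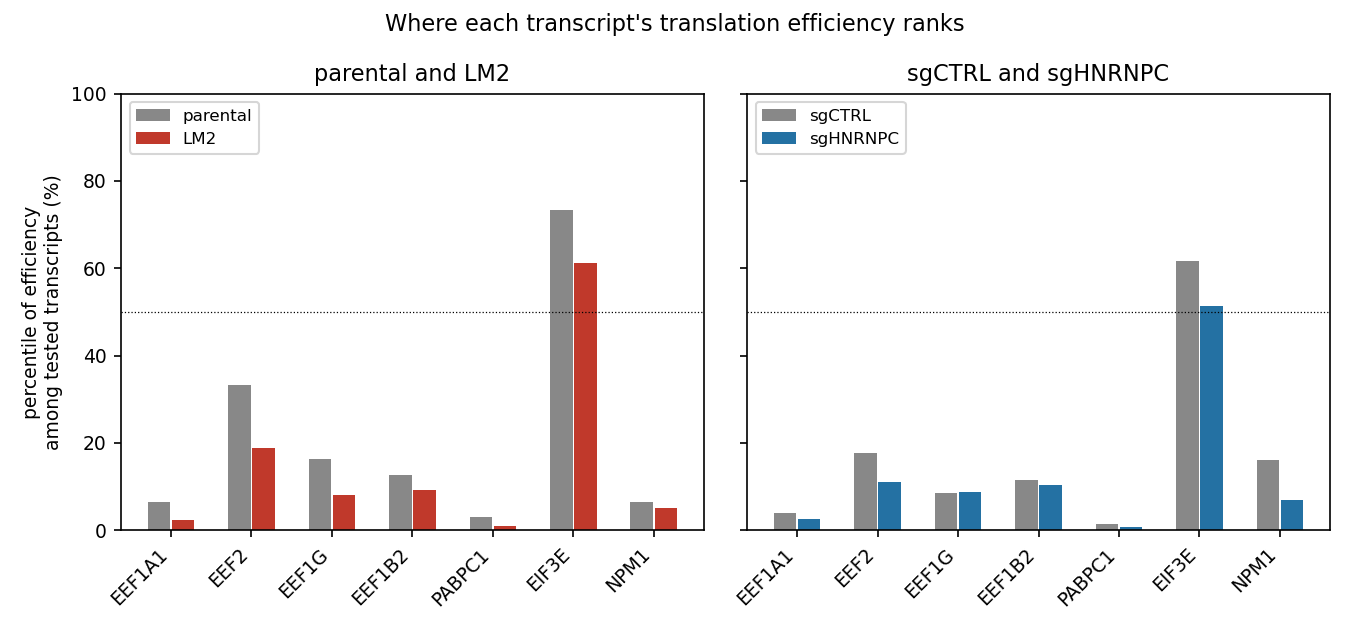
Percentile (%) of each transcript's efficiency, the mean footprint value over the mean RNA value of a group, among the tested transcripts of its table; the bars are the 4 cell groups and the dotted line is the median of tested transcripts. EIF3E lies above the median in all 4 groups, though close to it in HNRNPC knockdown cells (51.2%). PABPC1 is lowest in all 4, from 3.02% in parental to 0.773% in HNRNPC knockdown cells.

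In LM2 cells the elongation factors carried fewer footprints than in parental cells in the main fit. There the efficiency of EEF1A1, EEF2, EEF1G and PABPC1 fell. Of these efficiency calls, only that of PABPC1 held in all 6 fits that left out a replicate. None held when footprints and RNA of the same replicate number were paired, and quantile normalization left 0 footprint falls. For footprints 4 of the 7 fell and 0 rose, where 14.5% of all tested transcripts fell and 9.25% rose. For efficiency 4 of the 7 fell and 0 rose, where 1.16% of all tested transcripts fell and 0.471% rose. For RNA 4 of the 7 rose (EEF1A1, EEF1G, PABPC1 and EIF3E) and 1 fell (EEF1B2), where 22.9% of tested transcripts rose and 30.8% fell. The median efficiency change of the 7 was -0.45 on the log2 scale, against 0.04 over all tested transcripts, that of footprints -0.27 against -0.0011, and that of RNA 0.09 against -0.03. Transcripts with high footprint values as a class had lower footprints too. Among the 1378 tested transcripts whose footprints averaged at least 200, as those of all 7 did, footprints fell for 38.8% and rose for 5.01%, with a median change of -0.16. In that class efficiency fell for 5.15% and rose for 0.798% (median -0.04), and RNA fell for 47.7% and rose for 19.2% (median -0.08).

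RNA of 5 of the 7 and footprints of 5 of the 7 did not overlap between the groups. For RNA, 25.6% of all tested transcripts were higher in every LM2 library and 33.3% lower, and for footprints 16.9% were higher and 20.4% lower.

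EEF1A1 footprints were 2816, 2789 and 3191 in parental replicates 1 to 3 and 2539.7, 2022 and 2039.7 in LM2 replicates 1 to 3. Its RNA was 225213, 220169 and 221789 in parental and 241533, 247755 and 250578 in LM2 cells. The groups did not overlap in either assay, with LM2 lower in footprints and higher in RNA. Footprints fell by 0.42 on the log2 scale (SE 0.09, limma adjusted p = 0.000703), RNA rose by 0.15 (SE 0.02, adjusted p = 3.25e-05), and efficiency fell by 0.57 (SE 0.11, adjusted p = 0.0158).

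EEF2 had fewer footprints in LM2 cells, while its RNA did not pass the test. Its footprints were 2244, 2137 and 2318 in parental and 1923, 1629 and 1543 in LM2 cells, again without overlap, a fall of 0.40 (SE 0.09, adjusted p = 0.000659). RNA was 70562, 75413 and 70844 in parental and 75084, 74945 and 73976 in LM2 cells, which overlapped (a change of 0.05, SE 0.03, adjusted p = 0.171). Efficiency fell by 0.45 (SE 0.10, adjusted p = 0.0279).

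EEF1G and EEF1B2 encode subunits of the exchange complex that reloads EEF1A1 with GTP. EEF1G footprints were 1224, 1179.9 and 1254 in parental and 1081, 963 and 940.3 in LM2 cells, and its RNA was 60835, 58278 and 60442 against 66088, 66096 and 67144. As for EEF1A1, LM2 libraries were all lower in footprints and all higher in RNA, and efficiency fell by 0.45 (SE 0.08, adjusted p = 0.00863). EEF1B2 differed in that its RNA fell too, by 0.11 (SE 0.03, adjusted p = 0.00582), with 27373, 26635 and 28309 in parental and 25761, 25578 and 25152 in LM2 cells. Its footprints fell by 0.27 (SE 0.08, adjusted p = 0.014), from 484, 467 and 512 to 437, 402 and 374, and its efficiency change of -0.17 did not pass the test (SE 0.08, adjusted p = 0.395, 95% interval -0.34 to 0.01).

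PABPC1 had an efficiency fall in LM2 cells that did not differ from that of EEF1A1 beyond their errors, and most of it lay in the RNA. RNA was 66653, 65776 and 65909 in parental and 88901, 87732 and 87703 in LM2 cells, a rise of 0.41 (SE 0.03, adjusted p = 1.36e-11). Footprints were 632, 638 and 607 against 562, 545 and 556, lower in every LM2 library as deposited. As a share of each library's summed footprint signal they overlapped. The change of -0.18 did not pass the test (SE 0.08, adjusted p = 0.0978). Efficiency fell by 0.59 (SE 0.0703, limma adjusted p = 0.000171). That SE is below the 0.0775 of footprints alone, since the fit takes 1 variance for both assays. The p-value may therefore be too small. With footprints and RNA of the same replicate number paired, the SE was 0.12 (limma adjusted p = 0.191).

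EIF3E and NPM1, a nucleolar chaperone of ribosome assembly, passed no efficiency test. EIF3E RNA rose by 0.09 (SE 0.03, adjusted p = 0.035), with 10245, 10317 and 10013 in parental and 10647, 11099.9 and 10746 in LM2 cells. Its footprints were 653, 599 and 715 against 619, 546 and 549.6, which overlapped, and the efficiency change of -0.28 did not pass (SE 0.09, adjusted p = 0.142). The EIF3E RNA call was lost in 4 of the 6 fits that left out a replicate. NPM1 passed none of the 3 tests, with an efficiency change of -0.14 (95% interval -0.35 to 0.08, adjusted p = 0.598) and footprints of 926, 885 and 1009.9 against 969, 792 and 789. NPM1 RNA of 70465.5, 73124 and 71401 in parental and 69287, 71973 and 71968 in LM2 cells overlapped as well.

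LM2 replicate 1 had the highest footprint value of the 3 LM2 libraries for 7 of the 7. Parental replicate 3 was highest in footprints for 6 of the 7, and control guide replicate 3 was lowest for 6. The 7 thus do not vary independently within a group. Without LM2 replicate 1 footprints fell for 7 and efficiency for 5 of the 7, EIF3E being the fifth. Footprints fell for 2 without LM2 replicate 2 and for 3 without LM2 replicate 3 or parental replicate 3, with EEF1A1 and EEF2 among them in each of the 6 fits. The efficiency of EEF1A1, EEF2 and EEF1G was called in 1 of the 6 fits that each left out 1 replicate, that without LM2 replicate 1, with adjusted p up to 0.155, 0.207 and 0.107, whereas PABPC1 passed in all 6 (adjusted p up to 0.00739). Over all tested transcripts footprints fell for 1359 in the main fit, 1363 without LM2 replicate 1 and 975 to 1171 without another replicate. Efficiency fell for 108, 265 and 16 to 40 in the same order. Without a variance trend PABPC1 alone was called for efficiency and none of the 7 for footprints. In that fit efficiency fell for 12 and footprints for 674 of all tested transcripts. No efficiency was called when footprints and RNA of the same replicate number were paired as if from 1 lysate (PABPC1 adjusted p = 0.191, EEF1A1 0.291), a fit with fewer residual degrees of freedom in which 0 of all tested transcripts were called and 1078 had an unadjusted p under 0.05. Its errors were also larger, with SE 0.12 for PABPC1 and 0.15 for EEF1A1, against 0.07 and 0.11 in the main fit. Quantile normalization, which fixes EEF1A1 at 0 because its rank was the same in all 6 libraries, left efficiency falls for 3 and footprint falls for 0.

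**Figure D2:**
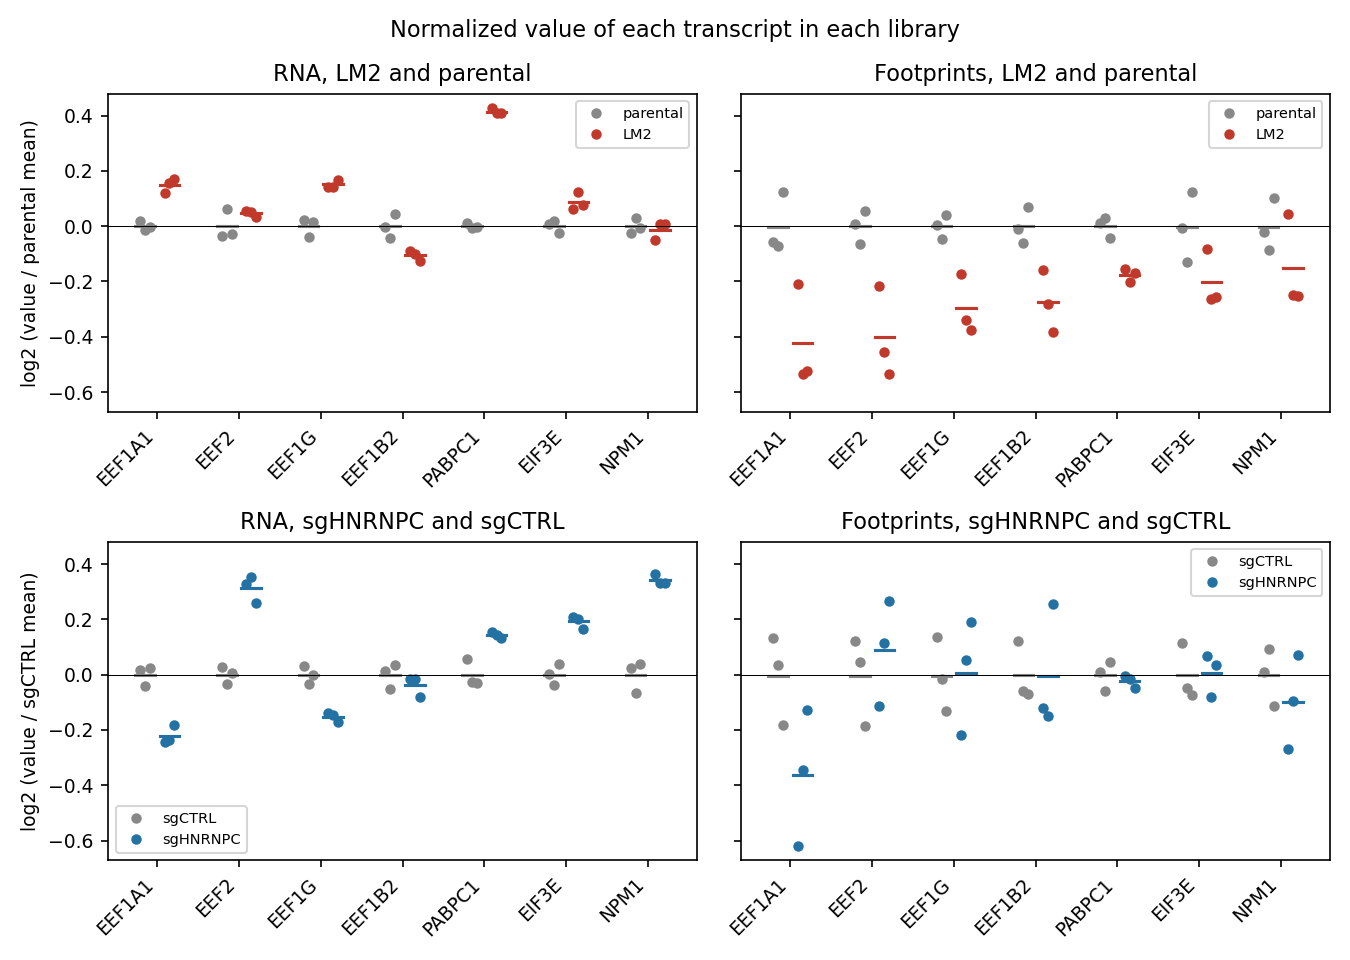
Value of each transcript in each library as log2 of its ratio to the mean of parental or control guide cells; points are libraries and short lines are means of the 3 points. In LM2 cells 5 of the 7 transcripts have footprints below every parental library (20.4% of all tested transcripts do), and in HNRNPC knockdown cells the footprints of all 7 overlap with the control while RNA of 6 does not. Of all tested transcripts, 29% have RNA higher in every knockdown library and 46% lower, and for footprints 20.5% and 25.7%.

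In HNRNPC knockdown cells the RNA of 6 of the 7 transcripts changed, as did that of 6084 of all 8283 tested transcripts. Footprints and efficiency changed for 1 of the 7 each. RNA rose for EEF2, PABPC1, EIF3E and NPM1 and fell for EEF1A1 and EEF1G, which is 4 up and 2 down of 7, where 28% of tested transcripts rose and 45.4% fell. Footprints fell for 1 (EEF1A1) and rose for 0, where 20.7% fell and 15.5% rose. Efficiency fell for 1 (NPM1) and rose for 0, where 1.74% fell and 3.72% rose. The median RNA change of the 7 was 0.14 against -0.10 over all tested transcripts, where quantile normalization puts the latter at 0.01 and that of the 7 at 0.22. The median efficiency change was -0.17 against 0.09, and that of footprints -0.0026 against -0.04. Among the 762 tested transcripts whose footprints averaged at least 200, RNA fell for 55.2% and rose for 25.2%, footprints fell for 36.1% and rose for 13.3%, and efficiency fell for 2.89% and rose for 5.91%. RNA of 6 of the 7 did not overlap between the groups, where 29% of tested transcripts were higher in every knockdown library and 46% lower, and footprints of 0 of the 7 did not overlap, where 20.5% were higher and 25.7% lower. Of all efficiency calls in this comparison 68.1% were higher in knockdown cells as deposited, and 43.5% after TMM scaling.

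EEF1A1 RNA was 247430.0, 237877 and 248592 in control guide and 206602, 207587 and 215666 in knockdown cells, a fall of 0.22 (SE 0.04, adjusted p = 4.13e-05). After TMM scaling the fall was 0.13 (adjusted p = 0.00292), and quantile normalization sets it to 0 because EEF1A1 ranked first in each of these libraries. Footprints were 2369, 2213 and 1904 against 1408, 1702 and 1977. Knockdown replicate 3 lay above control replicate 3, so the groups overlapped, while the fall of 0.36 passed the test (SE 0.14, adjusted p = 0.0382). That call was lost without control guide replicate 1 or 2 or knockdown replicate 1 or 2 (adjusted p = 0.217, 0.166, 0.0674 and 0.138), without a variance trend (0.139) and with a minimum mean of 50 (0.0556). Efficiency changed by -0.14 (95% interval -0.51 to 0.23, adjusted p = 0.7).

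EEF2 RNA rose by 0.31 (SE 0.04, adjusted p = 8.92e-08), with 71329, 68236 and 70236 in control guide and 87832, 89274 and 83730.0 in knockdown cells. All knockdown libraries were above all control libraries. Footprints of 1349, 1283 and 1092 against 1148, 1345 and 1494 overlapped (0.10, SE 0.12, adjusted p = 0.581). As deposited, RNA of EEF2 rose and that of EEF1A1, its partner in each round of elongation, fell.

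EEF1G RNA fell by 0.15 (SE 0.04, adjusted p = 0.000657), from 55801, 53392 and 54590.2 to 49570.5, 49363 and 48439. The median of all tested transcripts was -0.10, and after TMM scaling the fall was 0.06 (adjusted p = 0.0997) and no longer called. EEF1G footprints were 738, 665 and 614 against 578, 697 and 767, with overlap and a change of 0.01 (95% interval -0.22 to 0.24, adjusted p = 0.949). EEF1B2 RNA was 19936, 19048 and 20229.7 in control guide and 19534, 19519.7 and 18678 in knockdown cells, and its footprints were 310.1, 274 and 271 against 262, 257 and 339.8. Both overlapped and none of the 3 tests was passed, with an RNA change of -0.04 (adjusted p = 0.392), a footprint change of -0.0026 and an efficiency change of 0.03 (95% interval -0.24 to 0.30), and the sign of all 3 turned after TMM scaling.

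NPM1 RNA rose by 0.34 (SE 0.04, adjusted p = 1.5e-08), from 43919.8, 41196 and 44320.1 in control guide to 55571, 54221 and 54266 in knockdown cells. Its footprints overlapped, at 734, 778 and 674 against 605, 683 and 765, a change of -0.10 (95% interval -0.32 to 0.13, adjusted p = 0.531). Efficiency fell by 0.44 (SE 0.12, adjusted p = 0.0466). This call was close to the threshold and was lost with lysate pairing (adjusted p = 0.229), without a variance trend (0.101) and in 5 of the 6 fits that left out a replicate, all but that without knockdown replicate 3.

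PABPC1 and EIF3E also gained RNA, and their footprints overlapped. PABPC1 RNA was 50409, 47575 and 47430.0 in control guide and 53916, 53555 and 53167 in knockdown cells, a rise of 0.14 (SE 0.04, adjusted p = 0.00137). Its footprints were 291, 278 and 299 against 288, 286 and 280.0, a change of -0.02 (95% interval -0.22 to 0.17). EIF3E RNA rose by 0.19 (SE 0.04, adjusted p = 0.000103), from 8092, 7871 and 8296 to 9346, 9298 and 9077, and its footprints were 384, 343 and 337 against 372, 335 and 363. Their efficiency changes of -0.17 and -0.18 did not pass (adjusted p = 0.291 and 0.276).

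**Figure D3:**
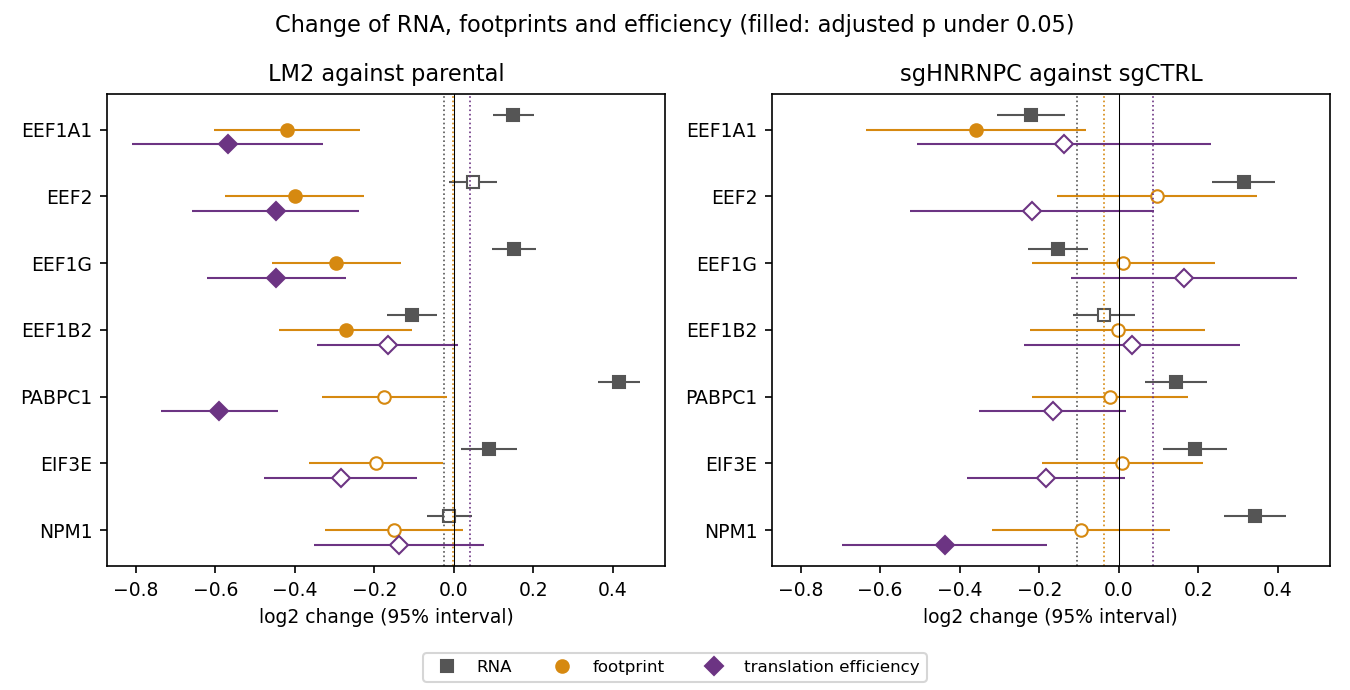
Change (log2, with 95% interval from limma) of RNA, footprints and efficiency for each transcript, LM2 against parental cells at left and sgHNRNPC against sgCTRL cells at right; filled marks have an adjusted p under 0.05 and dotted lines are the medians of all tested transcripts. In LM2 cells all 7 efficiency changes are negative, from -0.59 for PABPC1 to -0.14 for NPM1, and in HNRNPC knockdown cells they range from -0.44 for NPM1 to 0.16 for EEF1G.

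The comparisons share no library and were normalized separately, so their values are set side by side without a test between them. PABPC1 RNA rose in both, by 0.41 in LM2 and 0.14 in knockdown cells, and so did EIF3E RNA, by 0.09 and 0.19. RNA of EEF1A1 and EEF1G rose in LM2 and, as deposited, fell in knockdown cells, where the median RNA change of all tested transcripts was -0.10. After TMM scaling the knockdown fall of EEF1G was not called. Of the efficiency changes none was called in both, and those of EEF1A1, EEF2, PABPC1, EIF3E and NPM1 were negative in both. The knockdown intervals of EEF1A1, EEF2, PABPC1 and EIF3E, and the LM2 interval of NPM1, included no change. The share of all tested transcripts with a negative change in both was not computed.

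A share of each library's summed signal is a scaling by that sum. Summed RNA values were lower in knockdown (23607900 to 23863260) than in control guide libraries (26071868 to 26617054). They were also lower in LM2 (32454759 to 32801620) than in parental libraries (33854389 to 34184294). Footprint sums were lower in LM2 (1023095 to 1068217) than in parental libraries (1105987 to 1134509) too. Those of knockdown and control guide libraries overlapped. A higher share therefore need not mean higher values, nor lower values a lower share. The share of PABPC1 in the footprint signal overlapped (0.0564%, 0.0577% and 0.0535% in parental, 0.0526%, 0.0527% and 0.0543% in LM2 libraries). Those of EEF1A1, EEF2, EEF1G and EEF1B2 were lower in every LM2 library. The 7 transcripts together made up 1.55%, 1.56% and 1.56% of the RNA signal of parental libraries and 1.78%, 1.78% and 1.81% of that of LM2 libraries. Their share of the footprint signal was 0.801%, 0.786% and 0.847% in parental and 0.761%, 0.668% and 0.664% in LM2 cells. Thus LM2 libraries were all higher in the RNA share and all lower in the footprint share, with replicate 1 nearest to the parental cells. In control guide cells the RNA share was 1.87%, 1.82% and 1.87%, and in knockdown cells 2.04%, 2.02% and 2.05%. The footprint share overlapped there, with 0.820%, 0.789% and 0.721% against 0.696%, 0.759% and 0.827%. EEF1A1 carried much of each share: without it the RNA share was 0.905% ± 0.0083 in parental and 1.03% ± 0.0035 in LM2 cells (SD, n = 3), and the footprint share 0.550% ± 0.016 and 0.487% ± 0.032. In control guide and knockdown cells the RNA share without EEF1A1 was 0.926% ± 0.014 and 1.15% ± 0.017. The footprint share without it was 0.484% ± 0.025 and 0.518% ± 0.034, higher in knockdown cells, where the share with EEF1A1 was lower on average (0.776% ± 0.051 and 0.761% ± 0.065).

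**Figure D4:**
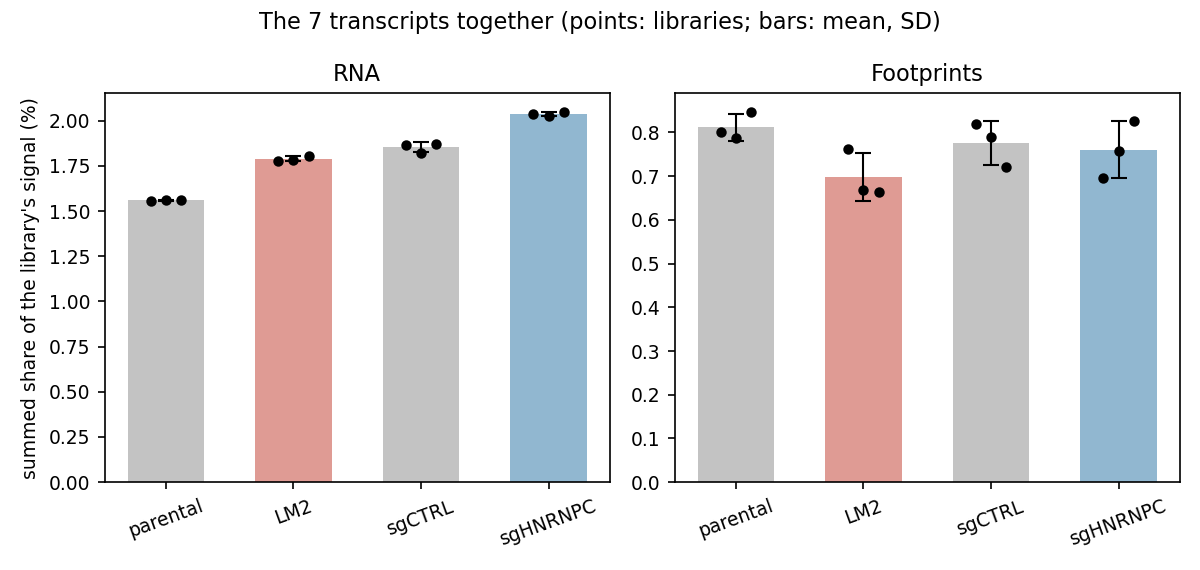
Summed share (%) of the 7 transcripts in the RNA signal (left) and the footprint signal (right) of each library; bars are group means, error bars the SD of 3 libraries and points the libraries. The RNA share is higher in LM2 than in parental and in HNRNPC knockdown than in control guide libraries, and the footprint share is lower in LM2 than in parental libraries, with the lowest parental library at 0.786% and the highest LM2 library at 0.761%.

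RNA libraries of the LM2 table summed to 26810200 to 52584700 steps and those of the knockdown table to 23344200 to 28334000. Footprint values summed to 1023095 to 1134509 and 669584 to 753066 per library, and their depth in reads is unknown. Nothing in the labels says that replicates were separate cultures, so the tests measure the spread between these libraries, which may be technical.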

How the data were processed

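Footprint and RNA libraries of 4 groups of MDA-MB-231 cells were used, 3 of each per group. Tools named in the submitters' processing notes are SAMtools, Bowtie2 2.3.5, cutadapt 2.3 and UMI-tools, and the build is hg38. For annotation, counting and scaling the sources used here give no detail. Values deposited by the authors are a normalized signal per transcript, 1 table per experiment; every RNA value (100%, within 0.05) was a whole multiple of 1 step per library, and footprint values had no common step. Since the lowest RNA values were 4 to 11 steps, a step could not be shown to be 1 read, and no count model was run.

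Values were tested as log2(value + 1) with limma 3.58.1 in R 4.3.3 (variance trend) on 3 against 3 libraries for RNA and footprints, and for efficiency as the assay-by-group interaction in 12 libraries. The interaction fit takes the same variance for footprint and RNA libraries of a transcript, although footprint errors were larger (EEF1A1 in LM2, SE 0.09 against 0.02). P-values were two-sided, adjusted by Benjamini-Hochberg over all transcripts with a mean of at least 10 in each assay, with a threshold of 0.05, within each table. Scripts were tested on simulated data. Alternatives were other pseudocounts, filters, scalings, variance models, replicate blocks and leaving out each replicate. All members present are named. The members and lists were chosen with earlier results of these data known, and the footprint minimum of 200 after the values were seen. A list of other translation genes and of cell markers could not be matched to transcript IDs and was not analysed here, nor were likeness between patterns and PABPC1 and EIF3E gene starts. Same-numbered libraries of compared groups did not deviate together (correlations -0.20 to 0.03 for RNA and -0.11 to 0.02 for footprints), so these fits have no block. Footprints and RNA of a group and number, from lysates that may be shared, had correlations of -0.0061 to 0.126 (11 of 12 above 0), against -0.11 to 0.039 for different numbers (9 of 24), and the lysate-paired fit is given beside the efficiency results.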

Additional observations from a re-analysis of the deposited data

How the results depend on the processing

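Of 714 recomputed values for single transcripts, 597 kept direction and call, 68 lost and 16 gained a call, and 36 changed sign (1 of the lost and 2 of the gained among them). The cause of these shifts was not tested except where the construction gives it.

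Quantile normalization (which sets EEF1A1 to 0 where its rank is constant) moved most. In LM2 cells it gave 0 RNA falls and 0 footprint falls, and turned RNA of EEF1B2 (0.020) and NPM1 (0.11, limma adjusted p = 7.87e-05), footprints of PABPC1 (0.055), EIF3E (0.027) and NPM1 (0.12) and efficiency of NPM1 (0.018). In knockdown cells it gave 1 RNA fall, 1 footprint rise and 2 efficiency falls, and turned EEF1B2 RNA (0.20), footprints (0.15) and efficiency (-0.054) and footprints of PABPC1 (0.13) and NPM1 (0.0028). TMM scaling turned LM2 NPM1 RNA (0.0081) and knockdown EEF1B2 RNA (0.053), footprints (0.015) and efficiency (-0.037), and left 1 knockdown RNA fall. A median change set to 0 turned the same values (0.017, 0.072, 0.038 and -0.033) and knockdown PABPC1 footprints (0.019), with 1 RNA fall. Array weights turned knockdown EEF1B2 efficiency (-8.3e-05).

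Without a variance trend, LM2 cells had 0 RNA falls, 0 footprint falls and 1 efficiency fall, and knockdown cells 0 footprint and 0 efficiency falls. Over all tested transcripts efficiency then fell for 12 in LM2 and 94 in knockdown cells, against 108 and 144 in the main fits. The spread of all 12 libraries left 1 RNA rise and 0 RNA falls in LM2 and 0 RNA falls in knockdown cells. A minimum mean of 50 left 0 knockdown footprint falls and gave median efficiency percentiles of 8.51% (parental), 5.75% (LM2), 5.91% (control guide) and 4.76% (knockdown). Ranking among all transcripts gave 15.6%, 10.4%, 17.9% and 13.6%.

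With a replicate block, LM2 counts were 4 RNA rises, 1 RNA fall, 4 footprint falls and 4 efficiency falls, and knockdown cells had 0 footprint and 0 efficiency falls; the replicate numbers did not pair the samples. Pairing over lysates gave 0 efficiency falls in either comparison.

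Leaving out 1 replicate gave 3 to 5 LM2 RNA rises, 2 to 7 footprint falls and 1 to 5 efficiency falls. Knockdown footprint falls and efficiency falls were 0 to 1 each. Over all tested transcripts efficiency then fell for 16 to 265 in LM2 cells, against 108 in the main fit. In knockdown cells it fell for 65 to 100, against 144. Changes of sign occurred for LM2 NPM1 RNA (-0.024 to 0.0063), for knockdown footprints of EEF1B2 (-0.13 to 0.069), EEF1G (-0.080 to 0.12), EIF3E (-0.027 to 0.068) and PABPC1 (-0.051 to 0.0016), and for knockdown EEF1B2 efficiency (-0.12 to 0.12). The percentiles ranged from 12.4% to 13.2%, 7.57% to 8.63%, 10.6% to 13.1% and 7.57% to 10.8%. Footprint depth in reads is unknown, so counting error could not be set beside the spread.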
